A study of Mus musculus with 12 samples.

Results

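The chaperonin CCT (also called TRiC) is a double ring in the cytosol, and each ring holds one copy of each of 8 related subunits. The subunits are encoded by Tcp1, Cct2, Cct3, Cct4, Cct5, Cct6a, Cct7 and Cct8, and the mouse table holds all 8 among 21135 genes with a summed value. They are described here in RNA-seq of microglia, macrophages that live in the brain. The family was chosen from a result of these data: Cct5 had differed between profiles, and its level is set here against that of the other 7 subunits, called its partners. The values that chose Cct5 are therefore given as a description, with no test. All 8 genes passed the filter on low values that left 10636 genes for testing.

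The labels give mouse midbrain as the tissue and a flow cytometer sort of the microglia before RNA extraction. 4 groups of 3 samples are labelled. KO animals had the Ppargc1a FF CreER genotype and received MPTP, a toxin of dopaminergic neurons, or PBS, the buffer control. WT animals had the Ppargc1a FF genotype, which carries the same conditional allele without CreER, and received MPTP or PBS. The labels place all 4 groups 6 weeks after tamoxifen, the drug that activates CreER. They do not name the promoter that drives CreER, and they do not say how many animals were used. The p-values therefore cover the variation between these profiles alone, which may be technical. The sources used here do not give ages.

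CCT encloses newly made proteins and closes over them with each cycle of ATP hydrolysis. Actin and tubulin are its best-known clients, and WD40 proteins such as the G protein beta subunits are others. The 8 proteins have fixed places in the ring, where the Cct5 protein sits between those of Cct2 and Cct7. Work in yeast places Tcp1, Cct2, Cct4 and Cct5 on the side of the ring that binds ATP more tightly and Cct3, Cct6a, Cct7 and Cct8 on the other. Because a complete ring takes one copy of each, the proteins are needed in equal number, but RNA levels need not be equal. Microglia depend on actin and microtubules for their motile processes and for engulfment.

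The table did not hold 12 separate measurements. Of its 12 columns, 6 were fixed arithmetic copies of others except in 49 rows of 42 genes, and the copying held for every one of the 57 rows of the 8 subunit genes to within rounding, with a largest departure of 0.0092 FPKM. The 6 separate profiles are KO MPTP 2, KO PBS 1, KO PBS 2, WT MPTP 1, WT PBS 1 and WT PBS 2. KO PBS 2 also stands, multiplied by 1.02, under the label KO MPTP 1, so its treatment cannot be told from the table. The unit was taken as FPKM, fragments scaled by transcript length and by the mapped total of the library, in which levels of different genes can be compared. The separate columns summed to between 388861 and 425554 FPKM, and read depth is unknown.

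The targeted gene was lower in every KO profile than in every WT profile, but its row is one of 49 in the table that depart from the relations between columns. Ppargc1a, which encodes a coactivator of mitochondrial genes, was 0.42 FPKM in KO MPTP 2, 0.33 in KO PBS 1 and 0.12 in KO PBS 2, against 2.72 FPKM in WT MPTP 1 and 5.70 and 6.21 in WT PBS 1 and 2. In the other columns it was 0.22 and 0.51 FPKM in KO MPTP 1 and 3 and 0.42 in KO PBS 3, against 2.83 and 2.95 FPKM in WT MPTP 2 and 3 and 5.60 in WT PBS 3. Its main row held 0.22 FPKM in KO MPTP 1 where the relation gives 0.122, against 2.83 FPKM in WT MPTP 2 where it gives 2.77 and 5.50 FPKM in WT PBS 3 where it gives 6.00. In WT PBS 3 it was the 1 row of 67354 to depart. The check of the labels thus rests on a row that departs from the relations, and why it departs was not tested. The label of microglia was borne out in part by markers. Macrophage genes such as Csf1r and Cd68 had means of 117 and 479 FPKM, and the 4 in the table summed to 613 to 663 FPKM in KO and 662 to 679 in WT. These ranges overlap at their ends, and their part in the results was not tested. Of the homeostatic microglia genes, however, 2 of 6 reached a mean of 1 FPKM, and Cx3cr1, P2ry12 and Siglech had means of 0.0517, 0.192 and 0.0250 FPKM and Sall1 was at 0. Of the markers of neurons, dopaminergic neurons, oligodendrocytes, endothelium, lymphocytes and erythroid cells that were in the table, 0 reached a mean of 1 FPKM. The 1 astrocyte and 1 granulocyte marker above it were Aldh1l1 and S100a8. The summed levels ran from 2.93 to 3.33 FPKM in KO and 2.88 to 3.29 in WT for 3 astrocyte markers, and from 3.68 to 5.76 in KO and 3.75 to 5.76 in WT for 2 granulocyte markers. In bulk RNA, fewer cells of a type and less RNA per cell cannot be told apart.

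The promoter sequences below are shown because Cct5 and Cct3 were the subunit genes whose KO profiles all lay under their WT profiles, and Tcp1 is a partner with no such separation. That separation was found in 7.19% of all genes tested, and Cct5 was chosen for it. They are RefSeq windows of 300 bases in GRCm38.p6 that run across a gene's start, most of each lying before it. By symbol, 7 of the 8 genes matched, with 9 windows together, and the promoter of Cct4 was not analysed here.
Cct5, outer start (chr15:31601797-31602096, minus strand): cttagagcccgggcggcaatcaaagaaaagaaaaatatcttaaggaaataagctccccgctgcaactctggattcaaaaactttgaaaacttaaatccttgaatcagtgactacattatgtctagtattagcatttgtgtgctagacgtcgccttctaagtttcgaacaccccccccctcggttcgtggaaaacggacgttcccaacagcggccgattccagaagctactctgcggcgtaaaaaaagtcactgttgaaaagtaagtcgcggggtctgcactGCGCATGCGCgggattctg
Cct5, inner start (chr15:31601490-31601789, minus strand): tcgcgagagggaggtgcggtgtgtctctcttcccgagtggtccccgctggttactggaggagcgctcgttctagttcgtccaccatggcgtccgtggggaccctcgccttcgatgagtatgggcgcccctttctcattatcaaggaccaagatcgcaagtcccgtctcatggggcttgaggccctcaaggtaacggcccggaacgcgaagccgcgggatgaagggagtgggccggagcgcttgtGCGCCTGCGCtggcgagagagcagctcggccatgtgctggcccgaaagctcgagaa
Cct3 (chr3:88296885-88297184, plus strand): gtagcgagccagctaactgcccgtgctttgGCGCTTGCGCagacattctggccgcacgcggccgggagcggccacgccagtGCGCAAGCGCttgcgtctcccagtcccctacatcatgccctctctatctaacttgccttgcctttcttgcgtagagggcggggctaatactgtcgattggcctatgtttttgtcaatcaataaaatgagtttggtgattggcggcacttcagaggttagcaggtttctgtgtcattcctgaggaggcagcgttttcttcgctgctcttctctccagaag
Tcp1 (chr17:12916079-12916378, plus strand): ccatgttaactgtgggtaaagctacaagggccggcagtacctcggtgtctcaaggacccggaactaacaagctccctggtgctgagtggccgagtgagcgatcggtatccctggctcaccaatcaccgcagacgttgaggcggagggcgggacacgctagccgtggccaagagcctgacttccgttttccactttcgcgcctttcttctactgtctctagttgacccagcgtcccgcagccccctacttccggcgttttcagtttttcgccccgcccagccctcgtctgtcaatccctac
Capitals mark matches on either strand to the motif of NRF1, with any base allowed at the fifth position of the motif. NRF1 is a transcription factor of mitochondrial genes that the Ppargc1a protein coactivates. Matches begin at base 282 of the outer Cct5 window, at base 245 of the inner one, and at bases 31 and 82 of the Cct3 window. The inner Cct5 window lies wholly downstream of the outer one, so its match lies past the outer start. Matches to this motif are not in the windows of Cct2, Cct6a, Cct7, Cct8 and Tcp1. Of all 32851 windows in the table, 4.60% held this motif and 0.971% held its palindromic form, which among the subunit windows was found in the outer Cct5 window. This was 1 of 8 motifs searched on both strands. CCGGAAG, bound by ETS factors, was in windows of Cct2, Cct8 and Tcp1 and in 8.86% of all windows, GAANNTTC, of heat shock factors, was in 1 window of Cct2 and 7.86% of all, and TGCGCA, which can overlap the NRF1 motif, was in windows of Cct3, Cct5 and Cct6a and 7.76% of all. CCAAT was in 37.4% of all windows and windows of Cct3, Cct6a, Cct7 and Tcp1, GGGCGG was in 35.7% of all and 8 of the 9, and TATAAA was in 13.6% of all and 0 of the 9. The motifs were chosen after the sequences and values had been seen, a match is a description and not a binding site, and its part in the levels was not tested.

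Cct5 encodes the epsilon subunit. Its level was 193 FPKM in KO MPTP 2, 114 in KO PBS 1 and 191 in KO PBS 2, against 202 FPKM in WT MPTP 1 and 287 and 295 in WT PBS 1 and 2. The WT PBS profiles were highest and close to each other, KO PBS 1 was lowest, and the other 3 profiles, of both genotypes, lay between 191 and 202 FPKM. KO and WT profiles did not overlap, a separation for which Cct5 was chosen. In 7.19% of all genes tested every KO profile lay under every WT profile. In the copied columns Cct5 was 195 and 193 FPKM in KO MPTP 1 and 3 and 152 in KO PBS 3, against 206 and 202 FPKM in WT MPTP 2 and 3 and 289 in WT PBS 3. The value under KO PBS 3 therefore lies between KO PBS 1 and 2 by construction and adds no measurement.

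**Figure D1:**
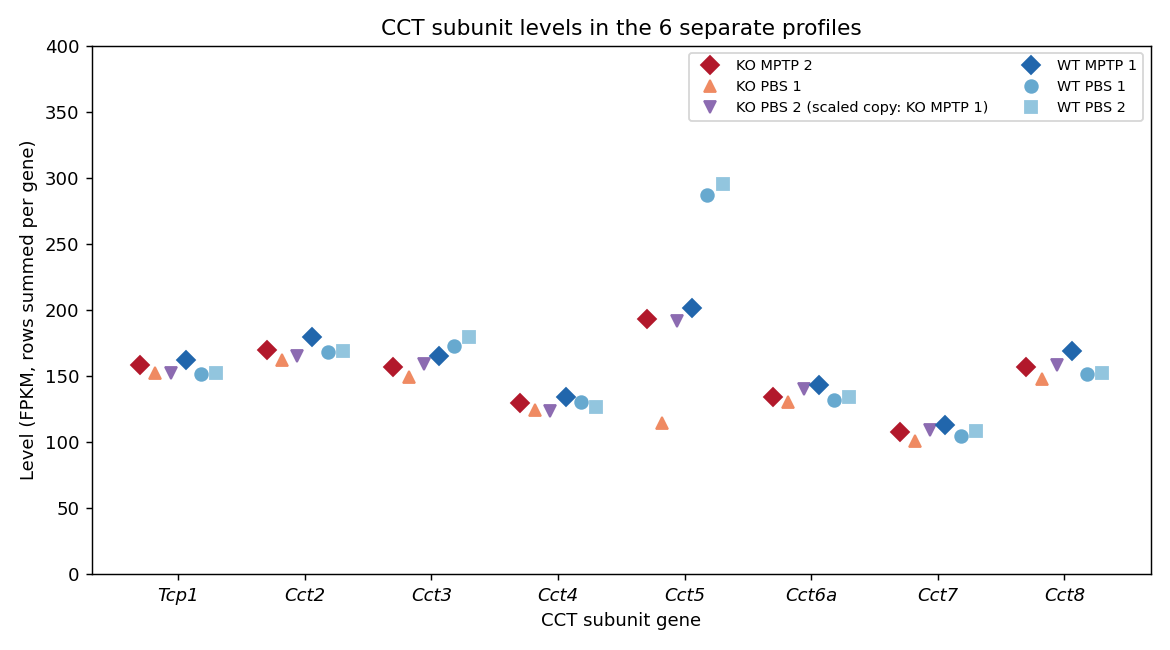
Level in FPKM (vertical axis, from 0) of each CCT subunit gene (horizontal axis) in the 6 separate profiles, 1 point a profile. Cct5 spreads from 114 FPKM in KO PBS 1 to 295 in WT PBS 2, while the points of each partner lie close together.

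The partners on the same side of the ring as Cct5 varied little. Tcp1, the alpha subunit, was 158 FPKM in KO MPTP 2, 152 in KO PBS 1 and 152 in KO PBS 2, against 162 FPKM in WT MPTP 1 and 151 and 152 in WT PBS 1 and 2. Cct2, the beta subunit and a ring neighbour of the Cct5 protein, was 170, 162 and 165 FPKM in the same KO profiles, against 180, 168 and 169 FPKM in the WT profiles. Cct4, the delta subunit, was 129, 124.5 and 124 FPKM in KO, against 134, 130 and 127 FPKM in WT. In all 3 genes WT MPTP 1 was the highest profile and the genotypes overlapped. The highest value was 1.07 times the lowest for Tcp1, 1.11 times for Cct2 and 1.08 times for Cct4, against 2.59 times for Cct5.

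On the other side of the ring, Cct3, the gamma subunit, had a pattern of its own. It was 157 FPKM in KO MPTP 2, 149 in KO PBS 1 and 159 in KO PBS 2, against 166 FPKM in WT MPTP 1 and 173 and 180 in WT PBS 1 and 2. KO PBS 1 was lowest and the WT PBS profiles were highest, as in Cct5, and KO and WT did not overlap. All KO profiles lay under all WT profiles in 7.19% of all genes tested. Its mean was 155 ± 5.27 FPKM in KO and 173 ± 7.19 FPKM in WT (SD, n = 3 separate profiles each), and the highest value was 1.21 times the lowest. Cct6a, the zeta subunit, was 135, 130 and 141 FPKM in KO, against 143, 132 and 135 FPKM in WT. Cct7, the eta subunit and the other ring neighbour of the Cct5 protein, was 108, 101 and 109 FPKM in KO, against 113, 105 and 109 FPKM in WT. In both, the genotypes overlapped. Cct8, the theta subunit, was 157, 148 and 158 FPKM in KO, against 169, 151 and 153 FPKM in WT, and it too overlapped.

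Among the partners, Cct6a, Cct4 and Cct7 held the 3 lowest places in that order in all 6 profiles, while Cct2, Cct3, Cct8 and Tcp1 changed places. Cct3 was above Cct2 in both WT PBS profiles and below it in the other 4. By mean over the 6 profiles the order ran from Cct5 at 214 ± 67.9 FPKM through Cct2 at 169 ± 5.96, Cct3 at 164 ± 11.2, Cct8 at 156 ± 7.45, Tcp1 at 155 ± 4.44, Cct6a at 136 ± 5.02 and Cct4 at 128 ± 3.93 to Cct7 at 107 ± 4.31 FPKM (SD, n = 6). Cct7 was lowest in all 6 profiles. Tcp1 over Cct6a, Cct6a over Cct4 and Cct4 over Cct7 held in 6 of 6 profiles, with mean differences above their SD. The neighbours from Cct5 to Tcp1 did not differ beyond the SD of their difference. Cct5 was the highest subunit in 5 profiles and ranked 7 of 8 in KO PBS 1.

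The level of Cct5 relative to its partners followed Cct5 itself. The ratio of Cct5 to the median of the other 7 was 1.23 in KO MPTP 2, 0.772 in KO PBS 1 and 1.26 in KO PBS 2, against 1.24 in WT MPTP 1 and 1.90 and 1.94 in WT PBS 1 and 2. Cct5 made up 16.0% of the summed FPKM of all 8 subunits in KO MPTP 2, 10.6% in KO PBS 1 and 16.0% in KO PBS 2, against 15.9% in WT MPTP 1 and 22.1% and 22.4% in WT PBS 1 and 2. The partner sum itself was 1013, 967 and 1008 FPKM in the same KO profiles, against 1067, 1010 and 1023 FPKM in the WT profiles. It was lowest in KO PBS 1 and highest in WT MPTP 1, the separate columns with the lowest and highest total FPKM. On the log2 scale the ratio averaged 0.09 ± 0.40 in KO and 0.73 ± 0.36 in WT (SD, n = 3 each), a difference of −0.65, which was −0.42 without KO PBS 1.

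**Figure D2:**
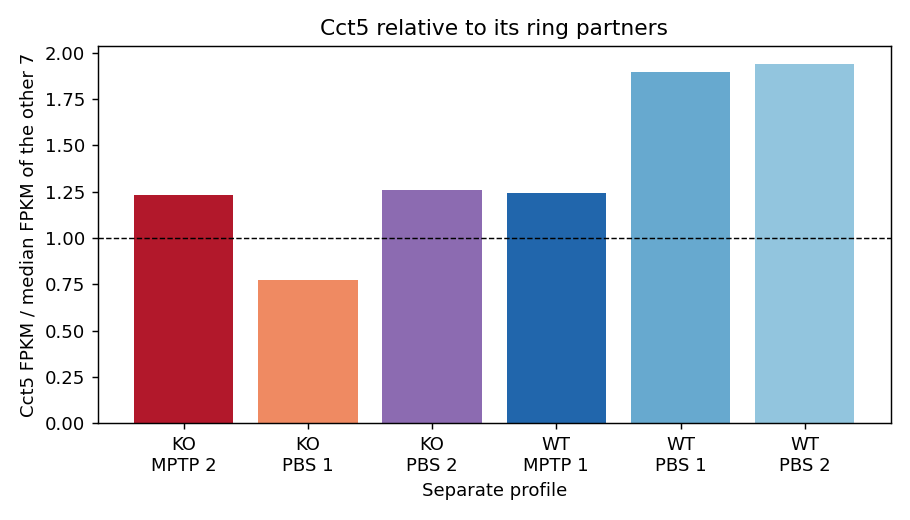
Cct5 FPKM divided by the median FPKM of the other 7 subunits (vertical axis, from 0) in each separate profile (bars), with a dashed line at equality. The WT PBS bars are at 1.90 and 1.94, KO PBS 1 is at 0.772, and the other 3 bars are between 1.23 and 1.26.

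The variation of Cct5 lay in 1 row of the table. Each gene was summed over its rows. Rows carry a gene symbol and a number, and what a numbered row is was not given in the sources used here. Cct5 has 5 rows, and row 4 held 97.3% of its mean. Row 4 was 186 FPKM in KO MPTP 2, 109 in KO PBS 1 and 186 in KO PBS 2, against 196 FPKM in WT MPTP 1 and 282 and 289 in WT PBS 1 and 2. The other 4 rows together were 7.19, 5.41 and 5.57 FPKM in the KO profiles, against 5.80, 5.10 and 6.00 FPKM in the WT profiles, so their sum overlapped between genotypes and KO PBS 1 was not their lowest profile. Row 1, the largest of these, was 4.12, 3.53 and 3.45 FPKM in KO, against 4.27, 3.66 and 3.32 FPKM in WT.

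**Figure D3:**
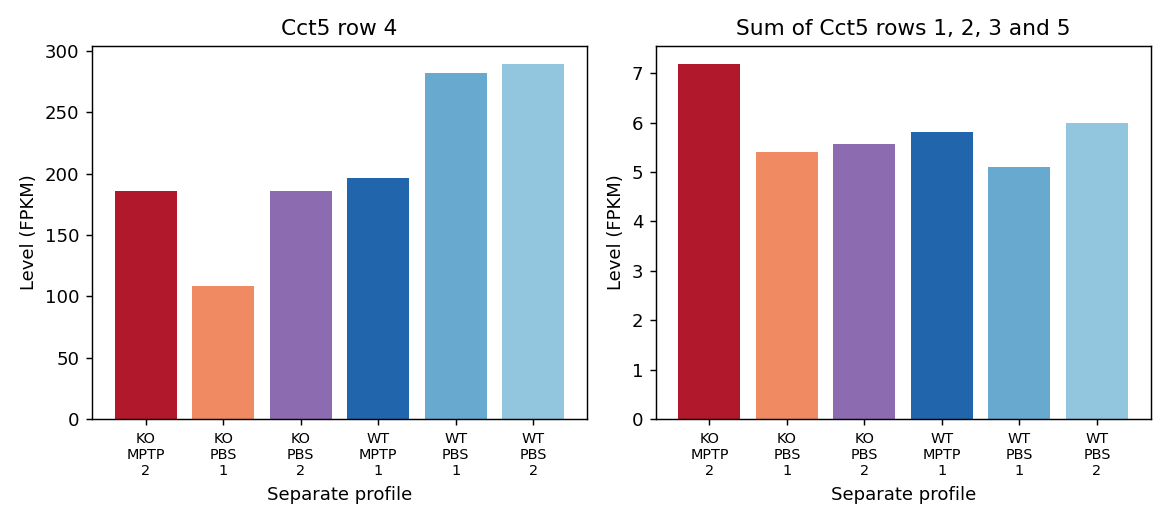
Cct5 row 4 (left) and the sum of Cct5 rows 1, 2, 3 and 5 (right) in each separate profile, in FPKM on axes that start at 0 and differ in scale. Row 4 is lowest in KO PBS 1, at 109 FPKM, and the other rows sum to between 5.10 and 7.19 FPKM.

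The partners were built differently in the table. Cct2 had 1 row, row 1 held 98.0% of the mean of Cct3, and Tcp1, Cct4, Cct6a, Cct7 and Cct8 were split over 2 or 3 rows of at least 10 FPKM each. Among the 15 partner rows at that level, the highest profile was between 1.10 and 1.54 times the lowest, the widest being a row of Cct4 at 11.6 FPKM, against 2.66 times for row 4 of Cct5. Mouse pseudogenes of several subunits are annotated. The 2 in the table, Cct3-ps1 and Tcp1-ps1, had means of 0.0117 and 0.00167 FPKM, and how reads shared with such copies were assigned is not given.

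Among all genes, Cct5 was one of few with a wide spread. It was chosen because it had differed between these profiles, so its place by spread follows from that choice and is a description. Its highest and lowest profiles were 1.36 apart on the log2(FPKM + 1) scale, and 15 of the 10636 genes, Cct5 included, spread at least as far. The median gene spread by 0.19. Of 543 genes with a mean of at least 100 FPKM, 5 spread at least as far as Cct5. The other 4 each had a row that departed from the arithmetic relations between columns, which 42 genes of the table had, whereas Cct5 had none. The partners spread by 0.10 for Tcp1, 0.12 for Cct4, 0.13 for Cct6a, 0.15 for Cct2, 0.17 for Cct7, 0.19 for Cct8 and 0.27 for Cct3, and 18.8% of the genes tested spread at least as far as Cct3.

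**Figure D4:**
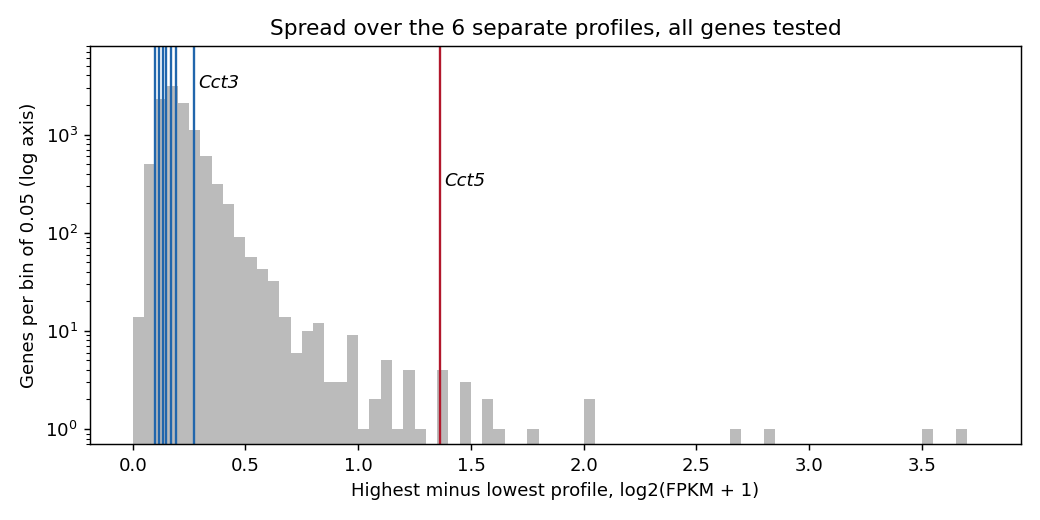
Number of genes (vertical log axis) by the difference between the highest and lowest of the 6 separate profiles on the log2(FPKM + 1) scale (horizontal axis), over the 10636 genes tested. The red line marks Cct5 at 1.36 and the blue lines mark its 7 partners, which lie between 0.10 and 0.27. Cct5 was chosen because it had differed between these profiles.

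KO PBS against WT PBS gives the genotype difference without the toxin. Cct5 was 1.34 lower on the log2 scale (log2 difference −1.34) in KO PBS 1 than in the WT PBS profiles, a value that chose the family and carries no test. With KO PBS 2 in place of KO PBS 1 the difference was −0.60, but KO PBS 2 also stands under the label KO MPTP 1 and may be an MPTP profile. The partners differed by between −0.24 and 0.00 with a median of −0.04, beside a median of −0.06 over all genes. With the profiles centred on the median gene that partner median was 0.02 and with quantile normalization 0.05, so it has no stable sign. Of the 7 partners 0 passed an adjusted p of 0.05 (limma, Benjamini-Hochberg over 10636 genes), where 0.226% of all genes did. Cct3 was the partner of largest difference, at −0.24 ± 0.08 (SE), with an interval from −0.42 to −0.06 at 95% and an adjusted p of 0.909. It was the 1 partner at an unadjusted p under 0.05, where 4.45% of all genes were. The fit used 5 profiles and left out KO PBS 2, and single profiles were assumed to vary like the WT PBS pair.

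Over both treatments, KO was compared with WT in all 6 separate profiles, since KO PBS 2 is a KO profile under either of its labels. The fit held genotype alone, with no term for treatment. If KO PBS 2 is an MPTP profile, treatment is not balanced between the genotypes, and the 2 cannot be told apart fully here. Cct5 averaged 166 ± 45.0 FPKM in KO and 262 ± 51.8 FPKM in WT (SD, n = 3 each), a log2 difference of −0.67, which was −0.42 without KO PBS 1. Cct3 was the partner of largest difference, at −0.15 ± 0.05 (SE; limma, adjusted p = 0.983), and it was lower in 3 of 3 KO profiles than in every WT profile. All KO profiles lay under all WT profiles in 2 of the 8 subunit genes, Cct5 and Cct3, and in 7.19% of all genes tested. Cct5 was chosen for this separation. The 7 partners ranged from −0.15 to −0.01 with a median of −0.04, beside −0.03 over all genes. With quantile normalization the partner median was 0.03. In this fit 0 partners were called, where 0.0752% of all genes were, and 1 partner, Cct3, had an unadjusted p under 0.05, where 3.5% of all genes did. The 95% intervals of the partners reached from −0.27 to 0.10.

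WT MPTP against WT PBS gives the difference with the toxin under the genotype without CreER. Ppargc1a RNA itself was lower in WT MPTP 1, at 2.72 FPKM, than in WT PBS 1 and 2, at 5.70 and 6.21 FPKM. Cct5 differed by −0.53 on the log2 scale, while 6 of 7 partners were above 0 and Cct3 was below. The partner median was 0.09, beside 0.04 over all genes, and Cct8 had the highest value at 0.15. No partner was called (0 of 7; limma, where 0.254% of all genes were), and 0 had an unadjusted p under 0.05, where 2.69% of all genes did. The intervals of the 7 reached from −0.27 to 0.33.

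KO MPTP against KO PBS gives it under the KO genotype, from 1 profile a group. Cct5 differed by 0.75. The difference was 0.01 when KO PBS 2 stood for KO PBS in place of KO PBS 1. It was 0.75 when KO PBS 2 was counted as KO MPTP, the other label under which that profile stands. The 7 partners were between 0.05 and 0.09, with a median of 0.07 beside 0.09 over all genes. Their median was −0.03 with median centring and with quantile normalization, and −0.02 with KO PBS 2 in place of KO PBS 1. Of the 7, 0 were called (limma, where 0.291% of all genes were), and 0 had an unadjusted p under 0.05, where 9.24% of all genes did. The intervals reached from −0.15 to 0.29.

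Under MPTP, KO differed from WT by −0.07 for Cct5, a value that was 0.02 with quantile normalization. The 7 partners lay between −0.11 and −0.04, with a median of −0.08 beside −0.01 over all genes. Of the 7, 0 were called (limma, where 0.132% of all genes were), and 0 had an unadjusted p under 0.05, where 3.62% of all genes did. The intervals reached from −0.31 to 0.17. The comparisons share profiles. KO PBS 1 stands on one side of both KO PBS against WT PBS and KO MPTP against KO PBS, so its low Cct5 enters both.

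The interaction, the MPTP difference in KO minus that in WT, was 1.28 for Cct5 and 0.54 with KO PBS 2 in place of KO PBS 1. With KO PBS 2 counted as KO MPTP it was 1.27. The 7 partners lay between −0.07 and 0.16, with Cct3 highest and a median of −0.03 beside 0.05 over all genes. Of the 7, 0 were called (limma, where 0.0752% of all genes were), and 0 had an unadjusted p under 0.05, where 5.18% of all genes did. The intervals reached from −0.34 to 0.44 over the 7.

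Across the 6 profiles the subunits did not all follow one another. On the log2(FPKM + 1) scale Pearson's r with Cct5 was 0.95 for Cct3, 0.45 for Cct7, 0.37 for Cct2, 0.36 for Cct4, 0.12 for Cct8, 0.12 for Cct6a and −0.10 for Tcp1. Among the 15 pairs of partners without Cct3, r ran from 0.36 to 0.93 with a median of 0.81. Between Cct3 and the other 6 partners it ran from −0.11 to 0.43. The 6 points share the scaling of each profile, and these values describe the profiles only.

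The genes whose pattern was most like that of Cct5 were sought among the 218 other tested genes that spread by at least 0.5. The 5 of highest Pearson r over the 6 profiles were Apoc2 (0.97), Sap18 (0.94), Gcat (0.93), Hspd1 (0.92) and Aarsd1 (0.89). Apoc2 encodes an apolipoprotein that activates lipoprotein lipase. It was 5.14 FPKM in KO MPTP 2, 2.82 in KO PBS 1 and 4.18 in KO PBS 2, against 5.42 FPKM in WT MPTP 1 and 6.45 and 6.62 in WT PBS 1 and 2. Sap18, a subunit of a histone deacetylase complex, was 17.5, 15.0 and 19.3 FPKM in the KO profiles, against 17.8, 23.7 and 21.9 FPKM in WT. In both genes KO PBS 1 was lowest and the WT PBS profiles were highest, a likeness that follows from how they were chosen.

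Hspd1 encodes the mitochondrial chaperonin, a distant relative of CCT in another compartment. It was 276 FPKM in KO MPTP 2, 260 in KO PBS 1 and 286 in KO PBS 2, against 303 FPKM in WT MPTP 1 and 369 and 368 in WT PBS 1 and 2. It was among the genes chosen for their likeness to Cct5, so the pattern it shares with Cct5 follows from that choice. Its log2 difference, given without a test, was −0.50 in KO PBS against WT PBS and −0.33 over both treatments. A row of Hspd1 departed from the relations between columns. Hspe1, the co-chaperonin of the Hspd1 ring, was at −0.08 in both comparisons. The neighbours of Cct5 on chromosome 15 in the reference table are Cmbl and Atpsckmt, listed in the data as Fam173b. Fam173b was 6.87, 6.02 and 7.10 FPKM in the KO profiles, against 6.80, 6.95 and 6.95 FPKM in WT, and Cmbl was at or under 0.5 FPKM in every one of the 6.

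Genes that work with CCT were taken from 7 lists: prefoldin, phosducin-like cofactors, tubulin folding cofactors, actin and tubulin clients, other clients, the mitochondrial chaperonin, and chaperonin-like genes. They name 51 genes, of which 41 were tested and 0 were called in any of the 6 comparisons (limma). At an unadjusted p under 0.05, beside the shares of all genes given above, there were 2 of the 41 in KO PBS against WT PBS, 2 in WT MPTP against WT PBS, 3 in KO MPTP against KO PBS, 0 in KO MPTP against WT MPTP, 2 in the interaction and 1 over both treatments. Hspd1, chosen for likeness to Cct5, was counted in KO PBS against WT PBS, WT MPTP against WT PBS and the interaction. It was also the 1 gene counted over both treatments, so these counts are not free of that choice. Over both treatments the median difference of the 41 was −0.03, equal to that of all genes to 2 decimals, and Hspd1 had the lowest value. Prefoldin hands unfolded actin and tubulin to CCT. All 6 of its genes were tested, and its 2 highest, Pfdn5 and Pfdn2, had means of 123 ± 4.91 and 41.9 ± 2.39 FPKM (SD, n = 6 separate profiles).

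Of 3 tested phosducin-like cofactors, which bind CCT and modulate folding, Pdcl3 had the highest mean at 56.5 ± 2.72 FPKM and Txndc9 the next at 34.2 ± 2.23. Of 5 tubulin folding cofactors, which take tubulin on from CCT, Tbca and Tbcb were highest at 146 ± 6.77 and 17.2 ± 1.05 FPKM. The client genes ranged widely in level. Of 16 actin and tubulin genes 11 were tested, with means from 1.48 FPKM up to Actb at 1256 ± 83.5, the next being Tuba1b at 501 ± 24.6 FPKM, and they spread over the profiles by 0.11 to 0.35 on the log2 scale. Of 13 other clients 12 were tested, with spreads of 0.12 to 0.40, and their 2 highest, the G protein beta subunit genes Gnb2 and Gnb1, were at 219 ± 8.61 and 126 ± 4.80 FPKM.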

How the data were processed

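RNA-seq libraries of sorted mouse microglia gave 1 deposited table of 67355 rows and 12 columns. Its values were taken as FPKM computed by the authors. The submitters' processing notes name CASAVA 1.5, Bowtie 0.12.7, TopHat, Cufflinks and the build mm9, with no role or order. No counting interval could be given, since read depth is unknown.

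Rows were summed per gene symbol after the trailing number was removed, and 1 row with text in a cell was left out. A gene was tested where 3 or more of the 6 separate profiles reached 1 FPKM. limma 3.58.1 (R 4.3.3, with trend) was fitted to log2(FPKM + 1), which understates changes of low genes, with Benjamini-Hochberg adjustment over 10636 genes and a threshold of 0.05. The fit of 4 groups used 5 profiles and left out KO PBS 2. The fit of KO against WT used 6. The columns that copy others entered no main test.

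The members and lists were chosen with earlier results of these data known. Named genes were the members, Ppargc1a, the called or otherwise the 2 highest genes of each list, the 5 genes most like Cct5 and its chromosomal neighbours. Alternatives were the pseudocount, the filter, median centring, quantile normalization, the highest row per gene, all 12 columns, a replicate block, the place of KO PBS 2 and leaving out each profile. Promoter windows of GRCm38.p6 served only for sequence, and no coordinates were converted.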

Additional observations from a re-analysis of the deposited data

Results flagged for a closer look

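The MPTP difference of Cct5 had opposite signs in the 2 genotypes when KO PBS 1 stood for KO PBS. It was 0.75 on the log2 scale in KO, between KO MPTP 2 and KO PBS 1, and −0.53 in WT, between WT MPTP 1 and the 2 WT PBS profiles. The KO difference minus the WT difference was 1.28. This difference was not tested, because Cct5 was chosen for its pattern in these profiles. The sign in KO rests on KO PBS 1. With KO PBS 2 in its place the KO difference was 0.01, and the difference between genotypes was 0.54, which is then nearly all the WT difference. KO PBS 2 also stands, scaled, under the label KO MPTP 1, so this 0.01 may compare MPTP profiles with each other. With KO PBS 2 counted as KO MPTP instead, the KO difference was 0.75 and the difference between genotypes was 1.27. Which reading holds cannot be told from the table.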

How the results depend on the processing

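With separate profiles, 0 of 7 partners were called in each of the 6 comparisons under the 15 alternatives run for each, the replicate block included. Some of these called no gene at all and so say nothing about the partners: 1 of 15 in KO PBS against WT PBS and in KO MPTP against KO PBS, 2 in WT MPTP against WT PBS, and 3 in each of the other comparisons. They include the fit with no filter in every comparison. Genes called over the 15 reached 40, 37, 52, 19, 18 and 71 in KO PBS against WT PBS, WT MPTP against WT PBS, KO MPTP against KO PBS, KO MPTP against WT MPTP, the interaction and both treatments together. All 6 profiles were left out in turn for both treatments together, and WT PBS 1, WT PBS 2 and KO PBS 1 for the others. The lowest and highest counts of partners were 0 there. With all 12 deposited columns entered as if separate, copies shrink the spread. Partners called were then 1 in KO PBS against WT PBS, 6 in WT MPTP against WT PBS, 4 in KO MPTP against WT MPTP and 1 over both treatments. With the replicate block added they were 2, 7, 4 and 1, and 2 each in KO MPTP against KO PBS and in the interaction. Genes called in KO PBS against WT PBS were 1321 there and 3022 with the block, against 24. Cct3 was called only in these 12-column fits, with an adjusted p (limma) of 0.0012 in KO PBS against WT PBS and 0.0113 over both treatments. Its adjusted p elsewhere lay between 0.281 and 1 and between 0.379 and 1.

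The Cct5 difference in KO MPTP against WT MPTP was 0.019 with quantile normalization, and the cause was not tested. Cct5 against its partners, KO minus WT, was −0.65 and lay between −0.85 and −0.42 when each profile was left out. Over single partners, 77 of 680 alternative values changed sign, none above 0.14 in size. The 680 include the 12-column fits and leave out Cct3 in KO PBS against WT PBS and over both treatments. WT PBS 1 minus 2 and KO PBS 1 minus 2 correlated at 0.23 across 10636 genes. With 1 such pair, the replicate numbers are not shown to pair the samples. With KO PBS 2 counted as KO PBS, adding the block left Cct5 at −0.97 in KO PBS against WT PBS. It gave −0.33 with and −0.53 without the block in WT MPTP against WT PBS, 0.19 and 0.38 in KO MPTP against KO PBS, −0.46 and −0.07 in KO MPTP against WT MPTP, and 0.52 and 0.91 in the interaction. Over both treatments it was −0.84 with and −0.67 without it. Unknown depth and 1 profile in 3 of 4 groups limit all tests.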

Other observations

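Cct6b and Cct8l1, paralogs of subunit genes, had means of 0.287 and 0.005 FPKM over the 6 separate profiles, and were named after their values were seen. Mkks and Bbs10, chaperonin-like genes of the Bardet-Biedl syndrome group, had means of 8.91 ± 0.614 and 1.02 FPKM. Gcat, which encodes an enzyme of threonine breakdown, was 7.80 FPKM in KO MPTP 2, 6.63 in KO PBS 1 and 7.69 in KO PBS 2, against 7.75 FPKM in WT MPTP 1 and 10.2 and 9.03 in WT PBS 1 and 2. Aarsd1, which encodes a protein with an alanyl-tRNA editing domain, was 8.23, 7.11 and 8.56 FPKM in the KO profiles, against 8.54, 15.5 and 17.0 FPKM in the WT profiles.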
